A study of Arabidopsis thaliana with 3 samples.

Results

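On the Agilent oligonucleotide arrays used here, 8812 of the 37478 noncontrol probes carry a chromosome position in place of a locus code or gene name. A position-named probe entered the comparison where its spot was well above background in tdt-1 or in wild type on all 3 arrays, and 1911 of the 8812 (21.7%) did so. The position names consist of a chromosome and a pair of coordinates, which span 60 bases in 8696 probes (98.7%) and between 45 and 969 bases over all of them. The files describe every one of these probes as unknown. The coordinates are printed below in the order in which the files give them, ascending or descending, and the sources used here do not name their genome build. The 1911 probes were thus chosen by detection flags from the same arrays as the ratios. The ratios of probes flagged on all arrays in 1 genotype alone are therefore not independent of the choice.

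Each of the 3 arrays held RNA of tdt-1 seedlings in one channel and RNA of wild-type seedlings in the other. The groups were whole Arabidopsis thaliana seedlings, aged 3 days and grown on MS agar in constant light at 22 °C, and they differ in genotype alone per the labels. Total RNA was linearly amplified and labelled with Cy3 or Cy5. Per the series' design text the arrays are biological replicates with 1 dye swap, with tdt-1 in Cy5 on replicates 1 and 2 and in Cy3 on replicate 3. The labels name neither the gene affected in tdt-1 nor the accession of the wild type. The reference table lists TDT and TRIDENT among the synonyms of DCP2 (AT5G13570), an mRNA decapping enzyme. All 12 markers of seedling tissues, from leaf photosynthesis to root hairs and shoot meristem, were well above background in both genotypes on all arrays. Probes of the dry-seed storage proteins CRA1 and CRU3 were well above background in tdt-1 on 3 arrays, but in wild type on 2 arrays and 1 array, and SESA3 in both genotypes on all. The part of seed RNA in the results below was not tested.

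Decapping removes the cap from the 5′ end of an mRNA, which opens the message to degradation by a 5′ to 3′ exonuclease, XRN4 in the Arabidopsis cytoplasm. Plant genomes give rise to many transcripts outside annotated genes, such as antisense RNAs, extended 3′ ends and short intergenic RNAs, and several of these classes are kept low by RNA decay. An oligonucleotide probe reads the transcripts that match its sequence, so a probe placed between genes or against a gene's strand can read RNA that a probe within the coding sequence cannot.

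Position-named probes were detected less often in tdt-1 than in wild type on all 3 arrays. On replicate 1, 58.2% of the 8812 were well above background in wild type and 32.9% in tdt-1. On replicate 2 the shares were 50.6% and 25.1%. On replicate 3 they were 29.5% and 25%. The gap was thus wide on the first 2 arrays, where tdt-1 was read in Cy5, and narrow on the dye-swapped array. Among the 26236 probes with a locus code the shares in wild type and tdt-1 were 87.8% and 83% on replicate 1, 86.3% and 80.1% on replicate 2, and 83.3% and 82.6% on replicate 3. The genotype, the dye, the array layout, the scan and the software version behind the flag differ together between replicate 3 and the others, and their parts in these shares cannot be told apart. In RNA of whole seedlings, fewer cells of a type and less RNA per cell cannot be told apart either.

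In the fit over all 24019 tested probes, 30 of the 1911 position-named probes rose in tdt-1 and 22 fell (limma, Benjamini-Hochberg adjusted p under 0.05), which is 1.57% and 1.15% of them. Over all tested probes 1561 (6.5%) rose and 1266 (5.27%) fell, so that 11.8% were called in either direction, against 2.72% of the position-named probes. Of the 20928 locus-coded probes 7.15% rose and 5.8% fell (12.9% in all), and of the 1180 probes with other names 2.88% rose and 2.63% fell (5.51% in all). At an unadjusted p under 0.05 the position-named probes numbered 328 (17.2%), against 33.4% of all tested, 35.6% of locus-coded and 20.3% of other-named probes. With the scanner software's own log ratio, which uses another dye normalization, 56 were higher and 78 lower, so the balance of the directions depends on the scaling. All 52 calls had the same sign on the 3 arrays and kept their sign under each alternative that held them. The calls depend on the variance model, the normalization and the arrays: in limma none of the 52 passed with an intensity trend and robust variances, with median centring or with replicates 1 and 2 averaged, where 336, 175 and 103 position-named probes had an unadjusted p under 0.05. Without replicate 1, 2 passed, without replicate 2, 1 passed, and without replicate 3, 868 position-named probes passed.

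The ratios of the position-named probes were small. Their median log2 ratio of tdt-1 over wild type was −0.04, at −0.05, −0.02 and −0.05 on replicates 1, 2 and 3, and their median absolute log2 ratio was 0.15. Over all tested probes the median was 0.01 and the median absolute log2 ratio 0.23. From the 5th to the 95th percentile the position-named probes spanned −0.40 to 0.41, within the span of −0.74 to 0.75 of all tested probes. A mean change of at least 2-fold was seen at 18 position-named probes, 10 up and 8 down, of which 8 and 5 passed the test. The sign was the same on all arrays at 943 of the 1911 probes (49.3%), against 57.6% of all tested probes.

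The highest ratio belonged to A_84_P735866, at chr1:10776117-10776176. Its log2 ratios were 2.37, 2.42 and 2.96 on replicates 1, 2 and 3, a mean of 2.59 ± 0.33 (SD, n = 3; limma adjusted p = 0.0142). Before normalization its background-subtracted signal was 934 in tdt-1 and 164 in wild type on replicate 1, 887 and 152 on replicate 2, and 1584 and 237 on replicate 3. The tdt-1 signal was therefore the brighter one on every array and with either dye. It was also one of the few calls to pass with replicate 1 or replicate 2 left out. The nearest probe with a locus code lies 4583 bases away in the opposite coordinate order and reads CPSF30, a subunit of the cleavage and polyadenylation complex. The CPSF30 probe stood at −0.16 ± 0.08 (limma adjusted p = 0.269), so the rise was not shared by the nearest locus-coded probe on the array.

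The next highest probe was A_84_P706709 at chr4:2077234-2077293, with log2 ratios of 1.46, 1.69 and 2.12 (1.76 ± 0.34, limma adjusted p = 0.0178), a mean that became 3.00 with the scanner log ratio. Its nearest locus-coded probe lies 22350 bases away, the farthest of any called probe. A_84_P12797, at chr1:7542907-7542848, had ratios of 1.38, 1.46 and 1.20 (1.35 ± 0.13, limma adjusted p = 0.0152). The locus-coded probe nearest to it, AT1G21530, described in the files as a putative AMP-binding protein, lies 2312 bases away and was not well above background. A_84_P731548 at chr3:11485245-11485304 rose by 1.12 ± 0.24 and A_84_P731518 at chr5:16745403-16745462 by 1.06 ± 0.28, with limma adjusted p-values of 0.0218 and 0.0261. These probes also lay over 2000 bases from the nearest locus-coded probe, at 5330 and 3643 bases, and neither neighbour was tested. These 5 probes, A_84_P735866 included, had ratios above 0 on all arrays, and none had a tested neighbour that passed.

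Other risen probes lay close to, or over, a locus-coded probe that rose too. A_84_P231469, at chr4:11341648-11341852, had log2 ratios of 1.5, 1.79 and 0.92 (1.41 ± 0.44, limma adjusted p = 0.0282). The probe of HSA32, a heat-stress-associated protein needed for long-term acquired thermotolerance, lies inside this span at chr4:11341791-11341850, in the same coordinate order. The lower coordinates are 143 bases apart, so these are not 2 separate places on the chromosome. The HSA32 probe had ratios of 1.63, 1.93 and 0.69 (1.42 ± 0.65, limma adjusted p = 0.0464). Both probes were lowest on replicate 3, and their means differ by less than either SD. A_84_P95756, at chr5:1426481-1426540, had ratios of 0.98, 0.89 and 1.02 (0.96 ± 0.07, limma adjusted p = 0.0178), 133 bases from AT5G04885, described as a glycosyl hydrolase of family 3, which rose by 0.79 ± 0.20. A_84_P286550, at chr3:19158730-19158789, rose by 0.89 ± 0.18, 235 bases from AT3G51620, an expressed protein without further description, which rose by 1.13 ± 0.19. A_84_P14855, at chr4:9177091-9177032, rose by 0.83 ± 0.32, 118 bases from ECHIA, an enoyl-CoA hydratase, which rose by 0.86 ± 0.24. In each of these 4 cases the probe and its neighbour have the same coordinate order and both passed the test.

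A further set of risen probes had the opposite coordinate order to a gene that rose. A_84_P707217, at chr1:1122362-1122421, had log2 ratios of 1.41, 1.44 and 1.01 (1.29 ± 0.24, limma adjusted p = 0.0191), 1971 bases from KCS2, a ketoacyl-CoA synthase of very-long-chain fatty acid synthesis, which rose by 0.86 ± 0.20. A_84_P708405, at chr5:7380186-7380127, had ratios of 1.1, 0.96 and 1.15 (1.07 ± 0.10, limma adjusted p = 0.0166), 1555 bases from NIT4, a nitrilase of cyanide detoxification, which rose by 0.73 ± 0.06. In wild type A_84_P708405 was well above background on 1 array only. It thus entered the comparison through tdt-1 alone, and its rise is not independent of that choice. A_84_P703756, at chr3:4731021-4730962, had ratios of 0.96, 0.87 and 0.77 (0.87 ± 0.09, limma adjusted p = 0.0200). It lies 490 bases from ESM1, which directs glucosinolate hydrolysis towards isothiocyanates, and the ESM1 probe had ratios of 3.39, 3.28 and 1.22 (2.63 ± 1.22, limma adjusted p = 0.0450). The ESM1 ratio was lowest on replicate 3, while that of A_84_P703756 was similar on the 3 arrays. A_84_P703756 and A_84_P708405 were dim spots whose direction rests on the dye normalization on the first 2 arrays: on replicate 1 the background-subtracted signals in tdt-1 and wild type were 63.0 and 78.7 for the one and 52.1 and 64.9 for the other.

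A single pair of called position-named probes lay within 2000 bases of each other, on chromosome 2 between the probes of MYB88 and UTR1. A_84_P721975, at chr2:805034-804975, had log2 ratios of 0.92, 1.15 and 0.87 (0.98 ± 0.15, limma adjusted p = 0.0196). A_84_P739163, at chr2:804643-804584, had ratios of 0.83, 0.85 and 0.65 (0.77 ± 0.11, limma adjusted p = 0.0234). Both have descending coordinates and both stood above 0 on every array. The probe of UTR1, a transporter of UDP-galactose and UDP-glucose, lies 1341 bases from the latter in the opposite order and rose by 0.69 ± 0.05 (limma adjusted p = 0.0242). The probe of MYB88, a transcription factor of stomatal development, lies 1251 bases from the former in the same order and stood at 0.59 ± 0.37 (limma adjusted p = 0.0946).

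The lowest ratio belonged to A_84_P722168, at chr5:5449091-5449150, with log2 ratios of −1.13, −1.39 and −2.67 (−1.73 ± 0.82, limma adjusted p = 0.0485). Its background-subtracted signals in tdt-1 and wild type were 51.6 and 247 on replicate 1, 62.9 and 301 on replicate 2, and 370 and 3908 on replicate 3. Wild type was the brighter channel on each array, by the most on replicate 3. A_84_P730222, at chr1:11435477-11435418, had ratios of −1.36, −1.62 and −1.36 (−1.45 ± 0.15, limma adjusted p = 0.0152), the smallest p among the lower probes. It lies 1168 bases from AT-IE, an enzyme of histidine synthesis, whose probe stood at −0.49 ± 0.47 (limma adjusted p = 0.184). A_84_P719755, at chr5:8972938-8972879, had ratios of −0.65, −1.25 and −1.71 (−1.20 ± 0.53, limma adjusted p = 0.0463), 473 bases from EIF3B-2, a translation initiation factor subunit at −0.30 ± 0.46. The spread of these last ratios over the arrays was wide, and the adjusted p lay close to the threshold.

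A_84_P707841 fell next to a gene that did not pass the test. It is at chr2:13278994-13278935, with log2 ratios of −1.17, −1.35 and −0.80 (−1.11 ± 0.28, limma adjusted p = 0.0242), and the probe of AT2G31140 lies 273 bases away in the opposite order at 0.22 ± 0.33 (limma adjusted p = 0.372). A_84_P725228, at chr2:7967744-7967797, fell by 1.04 on the log2 scale and A_84_P728262, at chr1:28894405-28894464, by 0.87 on that scale, and neither had a tested neighbour. A_84_P731477 at chr2:6988894-6988953 and A_84_P733447 at chr5:14312402-14312461 stood at −0.75 ± 0.25 and −0.74 ± 0.08, and the loci nearest to them, AT2G16050 and AT5G36270, at 0.17 ± 0.24 and 0.08 ± 0.93. A_84_P723430, at chr2:16546643-16546584, stood at −0.72 ± 0.21. The lower probes thus included several whose nearest locus-coded probe was near 0 or not tested.

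In 3 further lower probes the nearest locus-coded probe had a ratio of the same sign. A_84_P703907, at chr3:10257416-10257357, had log2 ratios of −0.62, −0.72 and −1.03 (−0.79 ± 0.21, limma adjusted p = 0.0325), 707 bases from LHCB2.3, a chlorophyll-binding antenna protein, in the opposite order. In tdt-1 A_84_P703907 was well above background on 2 arrays only. It thus entered the comparison through wild type alone, and its fall is not independent of that choice. The LHCB2.3 probe had ratios of −1.67, −1.67 and −4.17 and missed the threshold (−2.50 ± 1.45, limma adjusted p = 0.0651). A_84_P735025, at chr1:4158390-4158449, had ratios of −0.74, −0.69 and −0.76 (−0.73 ± 0.04, limma adjusted p = 0.0222), 967 bases from ATBETAFRUCT4, a vacuolar invertase at −0.80 ± 0.58 (limma adjusted p = 0.107). A_84_P245405, at chr1:12360395-12360336, had ratios of −0.63, −0.67 and −0.64 (−0.65 ± 0.02, limma adjusted p = 0.0253), and AT1G34010, an expressed protein 801 bases away, also fell, at −0.56 ± 0.07 (limma adjusted p = 0.0341). A_84_P735025 and A_84_P245405 varied less over the arrays than any other lower probe named here.

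**Figure D1:**
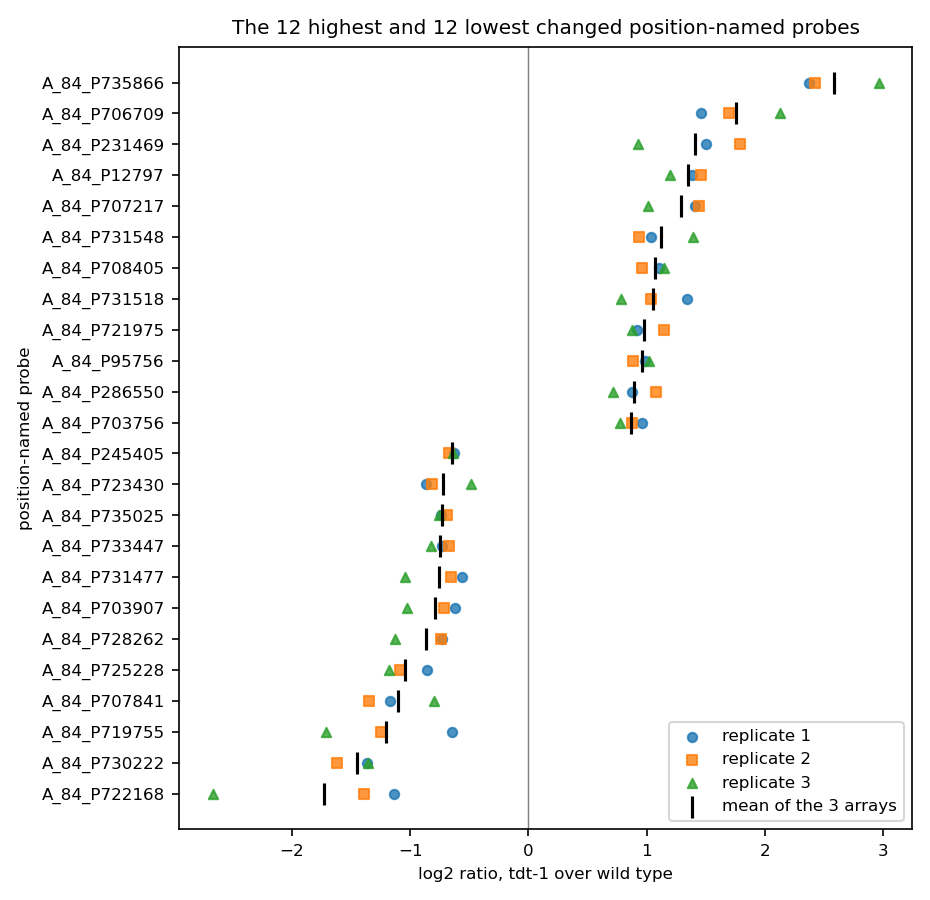
Log2 ratio of tdt-1 over wild type (x axis) on replicates 1, 2 and 3 for the 12 highest and the 12 lowest position-named probes past the test (y axis), with a bar at the mean. All points of a probe lie on one side of 0, and replicate 3 is the most distant point in both directions at A_84_P735866 (2.96) and A_84_P722168 (−2.67).

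The probes were also described by the genotype in which they were detected. Of the 1911 probes, 1031 (54%) were well above background in both genotypes on all arrays, 705 (36.9%) in wild type alone and 175 (9.16%) in tdt-1 alone. Of the locus-coded probes, 91.2%, 5.18% and 3.59% fell into these groups. The probes flagged in both genotypes had a median log2 ratio of −0.01 and held 26 of the 30 rises and 20 of the 22 falls. Those flagged in wild type alone had array medians of −0.16, −0.09 and −0.07, and 2 of them fell. Those flagged in tdt-1 alone had array medians of 0.31, 0.35 and 0.08, and 4 of them rose. The calls came to 0.284% and 2.29% of these groups, against 2.4% and 22.9% of the locus-coded probes flagged in wild type alone and in tdt-1 alone. The mean ratio was below 0 at 565 of the 705 probes and above 0 at 164 of the 175, a lean that the choice of the groups favours, so nothing is read from it.

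**Figure D2:**
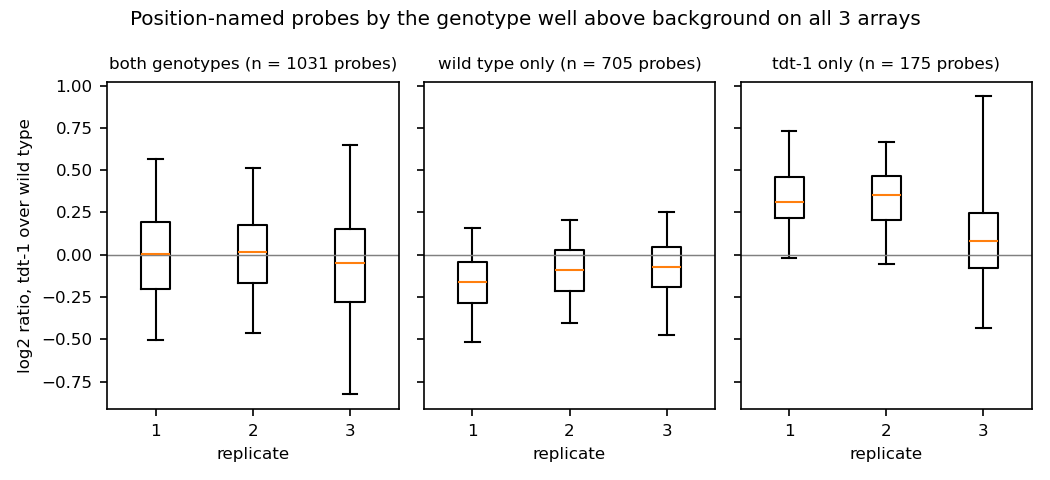
Log2 ratio of tdt-1 over wild type (y axis) of position-named probes on replicates 1, 2 and 3 (x axis), for probes well above background on all arrays in both genotypes, in wild type alone and in tdt-1 alone. In the last 2 groups the other genotype was well above background on fewer than 3 arrays. Boxes span the quartiles with a line at the median, whiskers run from the 5th to the 95th percentile, and the tdt-1 group has a median of 0.08 on replicate 3 against 0.31 and 0.35 on the other arrays.

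At 109 probes wild type was well above background on every array and tdt-1 on none, and none of the 109 passed the limma test. The reverse held for 5 probes, of which 1 passed. The genotype that was not well above background has only a bound at these probes. Over all noncontrol spots 79.7%, 76.7% and 69.4% were well above background in wild type on replicates 1, 2 and 3. In tdt-1 the shares were 69.4%, 65.2% and 67.4%. The share of all tested probes in these 2 classes is not given here, so nothing is read from the 109 and the 5. The 1 of the 5 that passed was A_84_P735941, at chr3:2984032-2983973, with log2 ratios of 0.49, 0.51 and 0.45 (limma adjusted p = 0.0397). After normalization its bound was 1.32-fold higher in tdt-1, as the mean of tdt-1 over the higher of the wild-type spot and the dimmest signal that was well above background. A_84_P735941 entered the comparison through tdt-1 alone, so its rise and its bound are not independent of that choice. With no background correction it did not pass (limma adjusted p = 0.0535). Its background-subtracted signal was lower in tdt-1 than in wild type on replicate 1 (26 and 66.8) and replicate 2 (20.6 and 53.0). On replicate 3 it was higher (38.7 and 21.4). The direction of A_84_P735941 on the first 2 arrays thus also rests on the dye normalization, and so does the bound. A_84_P734646, at chr4:861229-861170, had ratios of 0.71, 0.76 and 1.77 (limma adjusted p = 0.0652), and its background-subtracted signals in tdt-1 and wild type were 66.3 and 92.5 on replicate 1, 56.6 and 75.9 on replicate 2. Its nearest locus, AT4G01985, an expressed protein 5067 bases away in the same order, rose by 1.09 ± 0.26 (limma adjusted p = 0.0235). A_84_P731144, at chr3:15419665-15419724, had ratios of 0.49, 0.5 and 1.48 (limma adjusted p = 0.0982), with signals of 51.3 and 96.8 on replicate 1, 30.5 and 72.4 on replicate 2. In both of these probes, too, the sign on the first 2 arrays rests on the dye normalization. A_84_P311733, at chr5:12549938-12549879, had ratios of −0.59, −0.61 and −0.29 (limma adjusted p = 0.0592). With the scanner log ratio the means of A_84_P735941, A_84_P734646, A_84_P731144 and A_84_P311733 were 2.18, 3.46, 3.1 and −1.84, against 0.48, 1.08, 0.82 and −0.5 here, so the size of these ratios depends on the background correction and the dye normalization.

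At the edge of the detection filter the size of the ratios depended on the processing. The dimmest probes inside it were A_84_P716519, with a mean log2 intensity over both channels (A) of 6.10 and ratios of 0.44, 0.44 and 0.37, and A_84_P718154, with A of 6.19 and ratios of −0.30, −0.03 and −0.28. Their means were 0.41 and −0.2 here and 0.42 and −0.18 with no background correction. They were 0.89 and −0.39 with a normexp offset of 16, and 2.56 and −0.99 with the scanner log ratio. A_84_P716519 entered the comparison through tdt-1 alone and A_84_P718154 through wild type alone, so their directions are not independent of that choice. On replicates 1 and 2 A_84_P716519 read 20.9 and 17.5 in tdt-1 against 49.8 and 49.2 in wild type. Its sign there rests on the dye normalization. The brightest position-named probes outside the filter were A_84_P736161, with A of 8.47 and ratios of −0.03, −0.11 and 0.27, and A_84_P700286, with A of 7.51 and ratios of 0.14, 0.09 and −0.10. The filter is thus not a plain cut on brightness: A_84_P736161 read 8675 in tdt-1 and 10931 in wild type on replicate 3 but 12.6 and 75 on replicate 1.

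The share of probes that passed the test rose with the brightness of the spot. Among position-named probes with A under 6.5, 2 of 462 passed (0.433%), and from 6.5 to 7, 4 of 862 (0.464%). From 7 to 8 it was 14 of 387 (3.62%), and from 8 to 10 it was 25 of 174 (14.4%). At 10 or more 7 of 26 passed (26.9%), 1 higher and 6 lower. Locus-coded probes in the same ranges passed at 4.99%, 4.43%, 10.4%, 12.7% and 17.4%. Position-named probes were thus called less often than locus-coded ones among dim spots and about as often or more often from an A of 8, where the numbers are small. Their median A was 6.72, against 9.1 for locus-coded probes. No test of these shares was made.

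**Figure D3:**
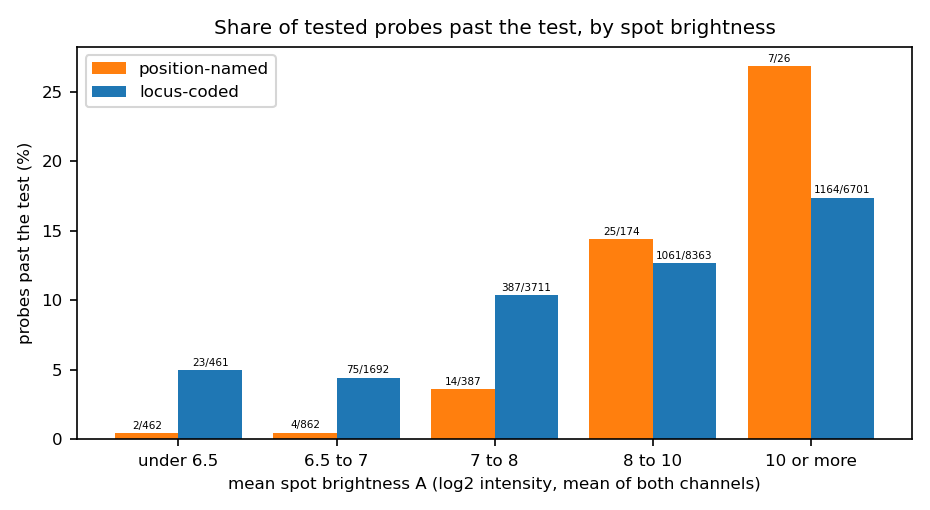
Share of tested probes with a limma adjusted p under 0.05 (y axis, percent) by mean log2 spot intensity A (x axis, in 5 ranges), for position-named and locus-coded probes, with the called and tested numbers above each bar. The share of position-named probes climbs from 0.433% in the dimmest range to 26.9% of only 26 probes in the brightest.

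The 5 brightest position-named probes did not pass the test. A_84_P723453 at chr5:10186377-10186436 had log2 ratios of −0.34, −0.40 and −1.53, and A_84_P706011 at chr2:9005821-9005762 had −0.40, −0.44 and −1.72. A_84_P153188 at chr5:12285110-12285169 had −0.10, 0.24 and −1.11. A_84_P723618 at chr4:58530-58581 had 0.41, 0.42 and −0.19, and A_84_P15217 at chr1:28105277-28105407 had 0.08, 0.14 and 0.61. In each of them replicates 1 and 2 lay closer to each other than to replicate 3, with a change of sign at A_84_P723618. The AT2G20920 probe, 1118 bases from A_84_P706011, showed the same layout, at −0.20, −0.20 and −1.93.

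The same layout held over all position-named probes. Across the 1911 probes the ratios of replicates 1 and 2 correlated at r = 0.83, those of replicates 1 and 3 at 0.29 and those of replicates 2 and 3 at 0.37. Across the locus-coded probes the values were 0.94, 0.53 and 0.57. Replicates 1 and 2 share a dye orientation, an array layout, a software version and a scan day, and replicate 3 differs from them in all of these. Probes are not independent, and the part of each difference was not tested.

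Calls were found on all 5 chromosomes and in both coordinate orders. On chromosome 1, 524 of 2165 position-named probes were tested (24.2%), and 7 rose and 6 fell. On chromosome 2, 342 of 1425 (24%) were tested, and 4 rose and 9 fell. On chromosome 3, 357 of 1783 (20%) were tested, and 8 rose and 1 fell. On chromosome 4, 229 of 1250 (18.3%) were tested, with 3 rises and 1 fall, and on chromosome 5, 459 of 2189 (21%), with 8 rises and 5 falls. Rises came to 1.34%, 1.17%, 2.24%, 1.31% and 1.74% of the tested probes of chromosomes 1 to 5. Falls came to 1.15%, 2.63%, 0.28%, 0.437% and 1.09%. Over all tested probes of the array 6.5% rose and 5.27% fell. The calls per chromosome are few, and whether the chromosomes differ was not tested. The median log2 ratios of chromosomes 1 to 5 were −0.05, −0.09, −0.02, −0.02 and −0.04, a range of 0.07. Chromosome 2 had the lowest median on each array (−0.10, −0.07 and −0.06) and chromosome 4 the highest (−0.01, 0.04 and −0.02). With no filter on dim probes the range was 0.009.

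Of the 4666 probes with ascending coordinates 1000 were tested (21.4%), and 17 rose (1.7%) and 11 fell (1.1%). Of the 4146 with descending coordinates 911 were tested (22%), and 13 rose (1.43%) and 11 fell (1.21%). Over all tested probes of the array 6.5% rose and 5.27% fell. The median log2 ratios of the ascending and the descending probes were −0.05 and −0.04. Descending minus ascending came to 0.02, 0.01 and −0.002 on replicates 1, 2 and 3, so that no difference between the orders was seen beyond the spread over the arrays.

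The position-named probes fall into 2 series by the number in the probe name, a split chosen after the data were seen. Below 700000 the array holds 499 position-named probes, of which 207 were tested (41.5%). At 700000 or above it holds 8313, of which 1704 were tested (20.5%). Of the 207 probes 8 rose (3.86%) and 2 fell (0.966%), and their median log2 ratio was 0.03. Of the 1704 probes 22 rose (1.29%) and 20 fell (1.17%), and their median was −0.05. Over all tested probes of the array the shares were 6.5% and 5.27%, above those of both series. The earlier numbers had brighter spots, with a median A of 7.63 against 6.68.

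The series differ in how they lie to the genes. The nearest locus-coded probe was found from the coordinates in the same files, as the distance between the lower coordinates. In the earlier series 87.9% of the tested probes had the coordinate order of that neighbour, at a median distance of 532 bases. In the later series 19.1% did, at a median of 1032.5 bases, so that 1378 of its 1704 probes run against their nearest annotated probe. For locus-coded probes and the nearest probe of another locus the order was the same in 48.3%. Over all 1911 probes, 1403 had the opposite order and 1543 (80.7%) lay within 2000 bases of their neighbour. Of the 1197 opposite-order probes within 2000 bases, 262 (21.9%) lay beyond the locus-coded probe in the direction of its own coordinates and the others before it. The 52 called probes divided into 26 with the same order and 26 with the opposite order.

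**Figure D4:**
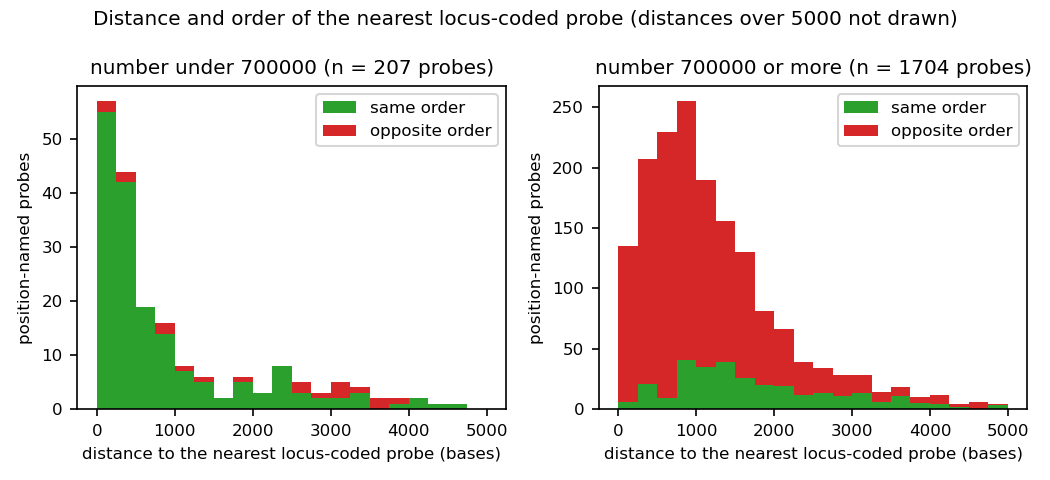
Number of tested position-named probes (y axis) by distance in bases to the nearest locus-coded probe (x axis; probes beyond its end are not drawn), for probe numbers under 700000 and of 700000 or more, stacked by whether the coordinates run in the same or the opposite order. The earlier series is mostly of the same order and close to its neighbour, and 1378 of the 1704 probes of the later series have the opposite order.

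Probes of the earlier series moved with the locus-coded probe nearest to them. Over 140 pairs of the same order within 2000 bases, the log2 ratios of the position-named probe and its tested neighbour correlated at r = 0.75, at 0.49, 0.67 and 0.90 on replicates 1, 2 and 3, and 73.6% of the pairs had the same sign. Over the 63 pairs within 300 bases r was 0.87, at 0.71, 0.83 and 0.94. Of the 9 called probes in the 140 pairs, 7 had a neighbour that passed with the same sign, HSA32, AT5G04885, AT3G51620 and ECHIA among them. The HSA32 probe lies inside the coordinates of its position-named probe, and the AT1G74790 probe overlaps those of A_84_P15217. Overlapping pairs were neither counted nor left out, so these correlations include probes that share sequence positions. Over all 140 pairs the neighbour passed at 14.

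Over all 1911 probes, the coordinate order made little difference to this relation within 2000 bases. Over 314 pairs of the same order within 2000 bases r was 0.37. Over 1128 pairs of opposite order within 2000 bases r was 0.35, at 0.19, 0.21 and 0.45 on replicates 1, 2 and 3, and 58.9% had the same sign. In these pairs the median A was 6.66 for the position-named probe and 10.3 for its neighbour, and 175 pairs share a neighbour with another pair. In the later series, same-order probes gave r of 0.14 over 174 pairs, below the 0.35 of its 1120 opposite-order pairs. With no background correction r was 0.38 for both orders over all probes, and with the scanner log ratio it was 0.25 for the same order and 0.32 for the opposite. Within 2000 bases the order alone thus did not separate close from loose pairs. Within 300 bases r was 0.77 over 72 same-order pairs and 0.26 over 151 opposite-order pairs. Of these same-order pairs 63 were of the earlier series, and the 9 of the later series gave r of 0.15. Order and series are thus mixed within 300 bases. Both probes of a pair were read on the same arrays, with the same dyes and normalization, so these correlations across probes are descriptions only, and the difference between them was not tested.

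Called probes mostly shared the sign of their neighbour. Of the 52, 35 had a tested locus-coded probe within 2000 bases, and 26 of the 35 had its sign. At 15 the neighbour passed too, and in 14 of those the signs were the same. Over all pairs within 2000 bases the sign was the same in 63.1% of the 314 same-order and 58.9% of the 1128 opposite-order pairs. The neighbour passed in 35 of the former and 163 of the latter. Whether called probes differ from these shares was not tested.

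**Figure D5:**
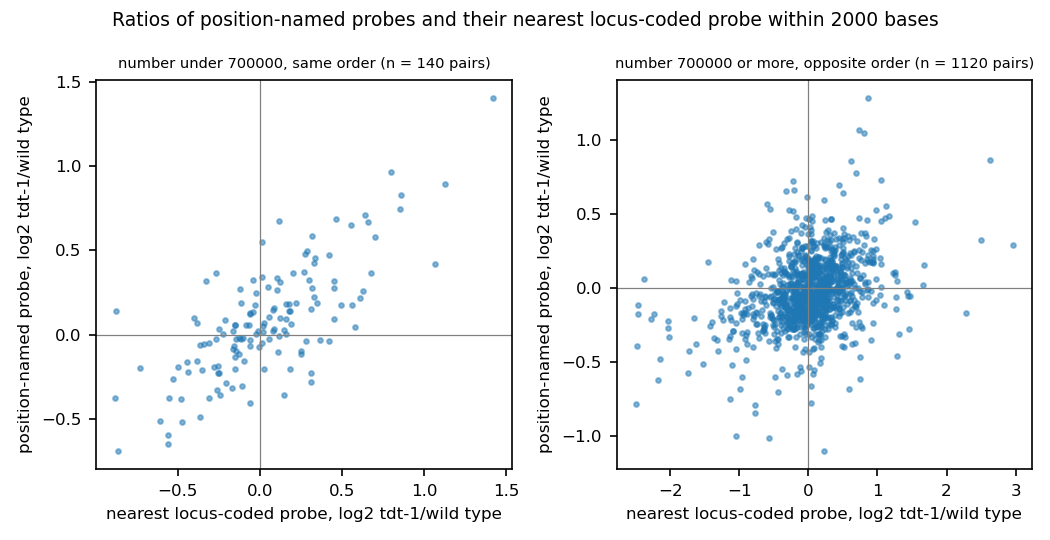
Log2 ratio of tdt-1 over wild type, mean of 3 arrays, of position-named probes (y axis) against that of the nearest tested locus-coded probe within 2000 bases (x axis), for 140 same-order pairs with probe numbers under 700000 and 1120 opposite-order pairs with numbers of 700000 or more. The points on the left follow a rising line (r = 0.75), and those on the right form a flat cloud (r = 0.35) with the neighbour spread more widely than the position-named probe.

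Position-named probes near each other showed a weak relation. Within 2000 bases there were 210 pairs with the same coordinate order, made of 336 probes, and their log2 ratios correlated at r = 0.40. By array the value was 0.05, 0.26 and 0.66, so it came mostly from replicate 3. The 66 pairs of opposite order gave r of 0.28, at 0.16, 0.19 and 0.27. Of the pairs, 4 and 10 overlap in sequence position, and no p is given for probes that share arrays and partners.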

How the data were processed

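The scanner files hold linear spot intensities, deposited as mean signal and median local background per channel. Per the file headers, Agilent Feature Extraction 8.5.1.1 read replicates 1 and 2 (206 by 215 spots, 10 micron) and 9.1.3.1 read replicate 3 (532 by 85, 5 micron). The multiplier of the well-above-background flag was 2.6 and 13 in these versions. The files also hold the software's log10 ratio of Cy5 over Cy3, per the file headers. The series table deposited by the authors is in log2 ratios, which match the scanner ratios with replicate 3 turned (slope 1, r = 1, median 0 per array), so scale, centring and direction are known.

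From the intensities, normexp (offset 50) and loess within arrays (control spots at weight 0) were run in limma 3.58.1 under R 4.3.3, the sign of replicate 3 was turned, and 16, 11 and 81 outlier spots were left out. Each probe's log2 ratio was tested against 0 over the 3 arrays with lmFit and eBayes, and p-values were adjusted over all 24019 tested probes by Benjamini-Hochberg at 0.05. A dye term would leave 1 residual degree of freedom and is an alternative. The script was tested on simulated data. The number of arrays limits the precision. Positions were compared in Python 3.11.15 with pandas 2.3.3. Of the 1688 loci nearest to tested probes, 1675 matched the reference table (TAIR10.1), used for names only. Of the 8812 probes, 9 had no value on an array.

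Probes named are the 12 highest and 12 lowest called ratios of 1 sign over the arrays, the 5 brightest, called pairs within 2000 bases, the smallest p by chromosome and order, the 2 dimmest inside and 2 brightest outside the filter, and up to 4 flagged in 1 genotype only. The members and lists were chosen with earlier results of these data known. Probe sequences were not used here.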

Additional observations from a re-analysis of the deposited data

How the results depend on the processing

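The counts of called probes moved with nearly every choice that touches the variance or the dye. Higher and lower probes numbered 19 and 10 with no background correction, 56 and 78 with the scanner log ratio and with the deposited series table, and 46 and 45 with a normexp offset of 16. They numbered 332 and 484 with a dye term, 586 and 657 with array weights (0.107 for replicate 3, against 1.1 and 8.48), and 0 and 0 with median centring, with an intensity trend and robust variances, and with replicates 1 and 2 averaged. In these 3 limma fits 175, 336 and 103 probes had an unadjusted p under 0.05. Over all 24019 tested probes these fits called 1 higher and 0 lower, 0 and 0, and 3 and 1, in that order. Leaving out 1 array gave 1 to 404 higher and 0 to 464 lower probes: 2 and 0 without replicate 1, 1 and 0 without replicate 2 and, with replicate 3 left out, 404 and 464, where the spread is that between replicates 1 and 2 alone. All 52 calls passed with the dye term, the array weights, the offset of 16 and without replicate 3, and 44 with the scanner log ratio. Among all 24019 tested probes, the dye term called 7597 higher and 7134 lower, and the array weights 9526 and 8086. Without replicate 3 these counts were 7805 and 6245. Most probes of the array passed in these 3 fits, so passing there says little about the 52. The array weights also gave a convergence warning. The 4 stricter or looser filters gave 48 to 53 calls in all. The median log2 ratio was −0.16 with the scanner ratio and the series table, −0.18 with median centring, −0.0698 with the offset of 16, −0.0115 for probes flagged in both genotypes and −0.0201 with array weights. The range of chromosome medians became 0.13 with the scanner ratio and the series table, 0.11 for probes flagged in both genotypes and with array weights, 0.0214 with the positive and significant flag, 0.00881 with no filter, and 0.0516 to 0.12 with 1 array left out. Descending minus ascending became 0.0626 with the scanner ratio and the series table, and 0.00324 to 0.0169 with 1 array left out. For same-order neighbours r became 0.25 with the scanner ratio and the series table and 0.47 for probes flagged in both genotypes. For opposite-order pairs of position-named probes r became 0.0544 with the scanner ratio and the series table, 0.19 with median centring, 0.20 with array weights and 0.19 to 0.31 with 1 array left out. A_84_P153188, not called at −0.32, turned to 0.0158 with median centring and 0.19 with array weights, and ranged from −0.61 to 0.0701 (the latter without replicate 3) with 1 array left out. Of the 37 tested probes named in the text, 12 had a mean log2 ratio over 1.5 times larger with the scanner ratio and the series table, and 4 with the offset of 16. They include A_84_P703907 (−2.15), A_84_P708405 (1.9), A_84_P703756 (1.85) and A_84_P731548 (1.72), and A_84_P734646 (3.46) then stood above A_84_P735866 (3.21). The causes were not tested. Each array is itself the pair of genotypes, so the test of its log2 ratio against 0 is the paired analysis. With only 1 group of ratios no further pairing was possible. The alternatives on correlations, chromosomes and orders were chosen after seeing the data.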
